A study of Mus musculus with 12 samples.

Results

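The 39 Hox cluster genes of the mouse were taken as every gene whose symbol in the RNA-seq tables is Hoxa, Hoxb, Hoxc or Hoxd followed by digits only, out of 54445 genes listed there. All 39 are protein coding and all were measured in both cell types. HoxA held 11 of them, HoxB 10, HoxC 9 and HoxD 9. The rule uses the symbol alone and no measured value, although it was set with earlier results of these data known.

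Hox genes encode homeodomain transcription factors that give cells of the embryo their position along the head-to-tail axis. They lie in 4 clusters, and within each cluster the genes follow each other in the order in which they are used along the body, from the anterior genes with low paralogue numbers to the posterior genes with high ones. Genes with the same number in different clusters are paralogues, descended from 1 ancestral gene. In pluripotent cells the clusters are known to be held silent by Polycomb complexes, and cultured fibroblasts are known to keep a Hox pattern that reflects the place in the body they came from.

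The study compared mouse embryonic stem cells (mESCs) of the E14 line with NIH3T3 cells, an established line of mouse embryonic fibroblasts, to ask where Ctr9 sits on chromatin. Ctr9 is a core subunit of the Paf1 complex (Paf1C), which travels with RNA polymerase II (RNAPII). Per the labels, both cell types grew in 1 medium with serum and LIF, a cytokine used to keep mESCs undifferentiated. Ctr9 was tagged with GFP at its own locus in mESCs and in NIH3T3 cells, and pools of sorted cells rather than clones were used. NELFA, a subunit of the pausing factor NELF, was GFP-tagged in other mESCs, from which the RNAPII Ser5p library also came. The ChIP-seq targets were Ctr9-GFP and the active histone mark H3K27ac in both cell types, with NELFA-GFP, RNAPII Ser5p and RNAPII Ser2p (the forms of RNAPII near promoters and in elongation) in mESCs only. RNA-seq was made for both. Each of these 9 measurements is 1 library with no replicate, so the differences below have no replicate check, no test across libraries was possible, and intervals (95%, exact) cover counting error only.

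The RNA tables gave transcripts per 1000000 (TPM) and estimated counts for each transcript, and a gene is given here by its transcript of highest TPM, as the study did for genes. The mESC library summed to 26400407 estimated counts and the NIH3T3 library to 28849497. A limit of 3 counts, which stands in for a library without a count, corresponds to 0.114 and 0.104 counts per 1000000 (CPM), respectively. The labels were checked against markers of each cell type. All 7 mESC markers were at least 2-fold higher in mESCs (Pou5f1 had a TPM of 1402 there and 0 in NIH3T3 cells), and all 7 fibroblast markers were at least 2-fold higher in NIH3T3 cells (Col1a2, 0.132 and 1082). Of 8 genes of early differentiation, 3 had a TPM of at least 1 in mESCs, Pax6 (2.02), Gata4 (2.21) and Nes (1.52). In such bulk samples, fewer cells with a transcript and less transcript per cell cannot be told apart.

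Most Hox genes were near the detection limit in mESCs, and a block of HoxA, HoxC and HoxD genes was expressed in NIH3T3 cells. In mESCs 1 of 39 Hox genes had a TPM of at least 1, or 2.56% (0.0649% to 13.5%), against 51.3% of all protein-coding genes. In NIH3T3 cells 13 of 39 did, or 33.3% (19.1% to 50.2%), against 49.2% of all protein-coding genes. The median TPM of the 39 genes was 0.0945 in mESCs and 0.265 in NIH3T3 cells, below the medians of all protein-coding genes (1.24 and 0.801) in both. All Hox transcripts together held 284 estimated counts in mESCs and 4395 in NIH3T3 cells. Any TPM above 0 was found for 28 Hox genes in mESCs and 29 in NIH3T3 cells, so the shares of genes with some RNA, 71.8% and 74.4%, were close to those of all protein-coding genes (73.8% and 66.9%).

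On the scale of log2(TPM + 1), 12 of 39 Hox genes (30.8%, 17% to 47.6%) were at least 2-fold higher in NIH3T3 cells, where 11.3% of all protein-coding genes were. These were Hoxa2 to Hoxa7, Hoxc4, Hoxc5, Hoxc6, Hoxd4, Hoxd8 and Hoxd9. Only Hoxc13 was at least 2-fold higher in mESCs, where 13.5% of all protein-coding genes were. The remaining 26 genes differed by less than 2-fold on this scale, which understates the change of low genes. With a pseudocount of 0.1 the counts were 19 and 6. The median log2 difference over the 39 genes was 0.319, and 0.00 over all protein-coding genes.

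**Figure D1:**
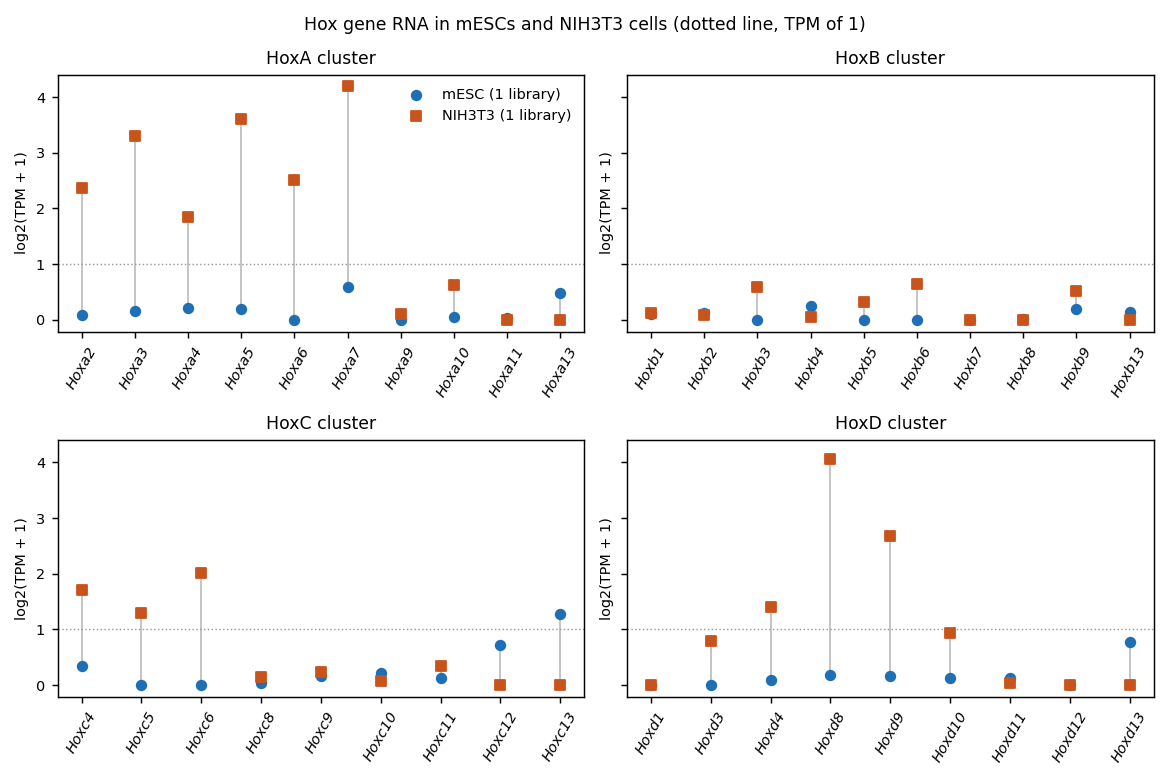
The plot gives log2(TPM + 1) of each Hox gene (vertical axis) in mESCs (circles) and NIH3T3 cells (squares), with genes of each cluster from anterior to posterior on the horizontal axis and 1 library per cell type. Hoxa7 (17.3 TPM) and Hoxd8 (15.7 TPM) stand highest in NIH3T3 cells, all 10 HoxB genes stay below a TPM of 1 in both, and Hoxc13 (1.41 TPM) is the highest Hox gene of mESCs.

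HoxA carried the largest share of Hox reads in NIH3T3 cells, 49.3% of the Hox estimated counts, and its expressed genes included the unbroken run from Hoxa2 to Hoxa7. Among the anterior HoxA genes, which act in the hindbrain and neck region, Hoxa2, needed for patterning of the second pharyngeal arch, had 0.0613 TPM (2 counts) in mESCs and 4.14 (145.8 counts) in NIH3T3 cells. Hoxa3, needed for the thymus and parathyroid glands, had 0.113 TPM (6 counts) and 8.81 (530.8 counts), and the ratio of CPM was 81 (37 to 221.7).

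The central HoxA genes, which pattern the thorax, included Hoxa7, whose top transcript had the highest TPM of any Hox gene in NIH3T3 cells. Hoxd8 was higher when TPM was summed over transcripts (30.1 against 20.3 for Hoxa7) and by counts (1138 against 785.0). Hoxa7 was at 0.501 TPM (19 counts) in mESCs and at 17.3 TPM (785.0 counts) in NIH3T3 cells, a 37.8-fold ratio (24.0 to 63.1). Hoxa5, required for the lung and the lower neck vertebrae, had 0.145 (5 counts) and 11.1 (411.0 counts), a ratio of 75.2 (32.0 to 232.9). Hoxa4 had 0.165 TPM (5 counts) in mESCs and 2.61 (85 counts) in NIH3T3 cells. Hoxa6 had no count in mESCs and 75 in NIH3T3 cells (4.71 TPM), at least 22.9-fold more when set against the limit of 3 counts. In NIH3T3 cells the TPM thus ranged from 2.61 to 17.3 within the central genes of HoxA alone, and the order of the genes along the chromosome was not the order of their levels.

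Posterior to Hoxa7 no HoxA gene reached a TPM of 1 in NIH3T3 cells, and only Hoxa10 lay above the limit of 3 counts. Hoxa9, the neighbour of Hoxa7, had 2 counts (0.0726 TPM) there and none in mESCs, so no ratio can be given. Hoxa10, which acts in the lumbar region and the uterus, had 24 counts (0.545 TPM) in NIH3T3 cells and 2 (0.0367 TPM) in mESCs, a ratio of 11 (2.73 to 95.9). Of the RNA of Hoxa10 in NIH3T3 cells, 83.2% of the TPM was assigned to Hoxa10-203, annotated as a processed transcript without a reading frame. Hoxa11 had 1 count in mESCs and none in NIH3T3 cells.

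HoxD held 38.7% of the Hox counts in NIH3T3 cells, 30.1% in its central genes Hoxd4 and Hoxd8 and 7.16% in its posterior genes. Hoxd8 had 1 count (0.135 TPM) in mESCs and 1138 (15.7 TPM) in NIH3T3 cells, and the ratio of CPM was 1041 (186.5 to 41169), the largest of any Hox gene with a count in both libraries. Its TPM in NIH3T3 cells was divided over 3 coding transcripts, with 52.3% in Hoxd8-201, 34.7% in Hoxd8-203 and 13.1% in Hoxd8-202. Hoxd9, a gene of limb and lumbar patterning, had 6.09 counts (0.124 TPM) in mESCs and 282.5 (5.41 TPM) in NIH3T3 cells, a ratio of 43.2 (19.6 to 118.6). Hoxd9 was the only gene with a paralogue number of 9 or more that reached a TPM of 1 in NIH3T3 cells. Hoxd4 had 2 counts (0.0665 TPM) and 182.6 (1.63 TPM).

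The genes on either side of this block were lower. Hoxd10 had 3 counts (0.099 TPM) in mESCs and 30 (0.915 TPM) in NIH3T3 cells, 9.15-fold more CPM (2.85 to 46.9). Hoxd3 had none and 65.8 (0.725 TPM). Hoxd1, at the anterior end, and Hoxd12 had no count in either library. Hoxd11 had 6.48 counts in mESCs and 2.01 in NIH3T3 cells, a difference that counting error covers (mESC over NIH3T3, 3.28, 0.586 to 33.2).

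HoxC held 9.42% of the Hox counts in NIH3T3 cells, most of it in its 3 most anterior genes. Mammalian HoxC has no genes of groups 1 to 3, so these are Hoxc4, Hoxc5 and Hoxc6. Hoxc6 had no count in mESCs and 134.0 (3.06 TPM) in NIH3T3 cells, at least 40.9-fold more. Hoxc4 had 10 counts (0.266 TPM) in mESCs and 152.0 (2.26 TPM) in NIH3T3 cells, a ratio of 13.9 (7.36 to 29.6), and Hoxc5 had none and 100 (1.45 TPM). The next gene, Hoxc8, had 1 count in mESCs and 4 in NIH3T3 cells, and Hoxc9, Hoxc10 and Hoxc11 had between 2 and 12 in each, with intervals of the ratio that all included 1.

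HoxB was the cluster with the least RNA in NIH3T3 cells, with 2.59% of the Hox counts and no gene at a TPM of 1. Its highest gene there, Hoxb6, had 24 counts (0.560 TPM) and none in mESCs, and Hoxb3 had 38 (0.503 TPM) and none. Hoxb5 had 19 and none, and 86.6% of its TPM lay in a transcript with a retained intron. Hoxb9 had 7 counts in mESCs and 22 in NIH3T3 cells. Hoxb4, a gene known for its effect on blood stem cells, went the other way, with 10 counts in mESCs and 2 in NIH3T3 cells (5.46-fold, 1.16 to 51.3). Hoxb1, Hoxb2, Hoxb7 and Hoxb8 had at most 6 counts in either library.

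The few Hox reads of mESCs lay mainly at the posterior ends of the clusters. Genes of groups 9 to 13 held 65.1% of the Hox counts in mESCs and 8.80% in NIH3T3 cells, and genes of groups 4 to 8 held 19% and 70.8%. Group 13 alone, the genes of the hindmost body, the digits and the urogenital tract, held 45.4% in mESCs. All 4 of its members had counts in mESCs and none in NIH3T3 cells. Hoxc13, known for its part in hair and nail formation, had 72 counts (1.41 TPM, interval of the count 56.3 to 90.7), Hoxd13 had 34 (0.709 TPM), Hoxa13 had 18 (0.392 TPM) and Hoxb13 had 5 (0.104 TPM). Against the limit of 3 counts in NIH3T3 cells the first 3 were at least 26.2-, 12.4- and 6.56-fold more, while the interval of the Hoxb13 count (1.62 to 11.7) included that limit. Hoxc12 showed the same, with 14 counts (0.654 TPM) in mESCs and none in NIH3T3 cells, at least 5.1-fold.

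**Figure D2:**
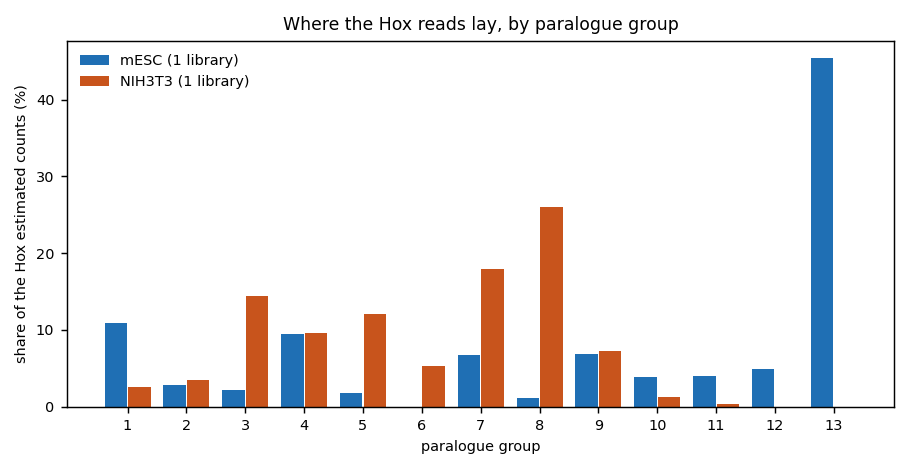
The bars give the share of all Hox estimated counts (vertical axis, %) that fell in each of the 13 paralogue groups (horizontal axis) in 1 mESC library (284 counts) and 1 NIH3T3 library (4395 counts). Group 13 holds 45.4% in mESCs and none in NIH3T3 cells, where groups 8, 7 and 3 hold 26.0%, 17.9% and 14.4%.

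Sequences of the promoters on either side of the borders in NIH3T3 cells are shown first, since the peaks described next end near these genes. Each is the RefSeq promoter window of GRCm38.p6 (300 bases, from 250 before the start to 50 after it), and capitals mark short letter matches on either strand. The letters searched were those of a basal promoter element, TATAAA, of a site bound by NF-Y, CCAAT, and of a site bound by Sp1, GGGCGG, and matches that overlapped were each counted. RefSeq windows were given for 22 of the 39 genes, 24 windows in all. Hoxd9 and Hoxa6 lie on the side with H3K27ac, and Hoxd10 and Hoxa9 on the side without. Hoxa7 lies between Hoxa6 and Hoxa9.
Hoxd9, chr2:74697513-74697812, plus strand: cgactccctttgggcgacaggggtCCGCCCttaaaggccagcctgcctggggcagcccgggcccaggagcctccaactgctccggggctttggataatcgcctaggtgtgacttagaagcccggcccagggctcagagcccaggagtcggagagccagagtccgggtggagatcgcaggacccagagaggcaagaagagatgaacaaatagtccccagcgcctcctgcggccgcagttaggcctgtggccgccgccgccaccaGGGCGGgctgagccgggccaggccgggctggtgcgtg
Hoxd10, chr2:74691641-74691940, plus strand: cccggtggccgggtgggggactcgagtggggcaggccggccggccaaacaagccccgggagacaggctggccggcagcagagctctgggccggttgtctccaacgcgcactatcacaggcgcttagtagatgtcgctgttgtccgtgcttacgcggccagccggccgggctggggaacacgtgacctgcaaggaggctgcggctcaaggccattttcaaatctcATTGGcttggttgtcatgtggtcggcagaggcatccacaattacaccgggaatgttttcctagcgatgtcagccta
Hoxa6, chr6:52208623-52208922, minus strand: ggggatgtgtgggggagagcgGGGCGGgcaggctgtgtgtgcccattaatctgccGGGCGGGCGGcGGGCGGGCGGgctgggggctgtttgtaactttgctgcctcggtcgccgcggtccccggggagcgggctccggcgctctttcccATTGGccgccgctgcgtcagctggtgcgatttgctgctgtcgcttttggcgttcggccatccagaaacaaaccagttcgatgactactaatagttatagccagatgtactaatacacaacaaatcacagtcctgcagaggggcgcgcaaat
Hoxa9, chr6:52227321-52227620, minus strand: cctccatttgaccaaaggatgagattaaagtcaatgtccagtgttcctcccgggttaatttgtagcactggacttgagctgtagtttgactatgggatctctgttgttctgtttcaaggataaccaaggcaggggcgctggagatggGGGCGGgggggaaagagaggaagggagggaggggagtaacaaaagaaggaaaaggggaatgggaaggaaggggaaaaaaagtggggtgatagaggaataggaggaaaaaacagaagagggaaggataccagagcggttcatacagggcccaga
The windows of Hoxd9 and Hoxa6 overlapped H3K27ac peaks of NIH3T3 cells with fold enrichments of 16.7 and 5.78, and those of Hoxd10 and Hoxa9 overlapped none. The window of Hoxa7, chr6:52218524-52218823, also overlapped none, although it lies inside the acetylated stretch. This window holds neither the annotated gene start nor the start of Hoxa7-201, the transcript with 85.3% of the Hoxa7 TPM. Each of those starts had an H3K27ac peak within 1 kb in NIH3T3 cells. Over the 24 windows, 7 overlapped an H3K27ac peak of NIH3T3 cells (Hoxa2, Hoxa3, Hoxa5, Hoxa6, Hoxd3, Hoxd8 and Hoxd9). These 7 had a median of 20 CpG dinucleotides and the other 17, that of Hoxa7 among them, had 13, against 7 over the 32851 promoters of the table. Their median GC contents were 61.7% and 57.3%, and 52.7% over all promoters. CCAAT was found in 15 of the 24 Hox windows (62.5%) and in 37.4% of all windows, GGGCGG in 10 (35.7% of all windows) and TATAAA in 4 (13.6%). Of the 7 acetylated windows, 5 held CCAAT, 2 held GGGCGG and 0 held TATAAA. Of the other 17, 10, 8 and 4 did, respectively. With 13.6% of all windows holding TATAAA, its absence from 7 is not unusual. A match of such short letters is a description and not a binding site.

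The windows of Hoxa13 and Hoxd13 are shown because both genes had RNA in mESCs alone. They were the most GC-rich of the 24.
Hoxa13, chr6:52260831-52261130, minus strand: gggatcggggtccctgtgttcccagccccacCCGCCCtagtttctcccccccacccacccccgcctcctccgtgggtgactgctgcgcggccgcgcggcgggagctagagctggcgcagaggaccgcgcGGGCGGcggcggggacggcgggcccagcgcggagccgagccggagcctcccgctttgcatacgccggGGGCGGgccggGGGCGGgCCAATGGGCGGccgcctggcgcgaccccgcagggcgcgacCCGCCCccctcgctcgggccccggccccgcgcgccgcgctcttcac
Hoxd13, chr2:74667975-74668274, plus strand: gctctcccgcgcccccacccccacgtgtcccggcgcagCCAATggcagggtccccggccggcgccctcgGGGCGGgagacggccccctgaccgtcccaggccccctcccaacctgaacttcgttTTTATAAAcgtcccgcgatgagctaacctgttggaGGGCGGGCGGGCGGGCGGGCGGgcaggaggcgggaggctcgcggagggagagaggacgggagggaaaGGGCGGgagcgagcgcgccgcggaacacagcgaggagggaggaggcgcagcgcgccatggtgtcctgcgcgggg
Hoxa13 had a GC content of 81.0% with 45 CpG and 6 matches of GGGCGG, and Hoxd13 had 74.3% with 37 CpG and 7 matches. No peak of any of the 7 lists overlapped either window.

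Each peak list gave the position of a peak, its summit, its fold enrichment over background at that point and a q-value on the −log10 scale. The clusters were taken from the outer ends of their first and last gene in mm10, together 491.8 kb. In mESCs the lists of H3K27ac (19417 peaks), NELFA (1980), RNAPII Ser5p (4490) and RNAPII Ser2p (1675) held no peak inside any of the 4 clusters. Over the genome these lists held 0.708, 0.0726, 0.165 and 0.0614 peaks per 100 kb, respectively. At the last 3 rates, a stretch of 491.8 kb without a peak is not unusual. In each list 0 of 39 Hox genes were bound (interval up to 9.03%, with the genes treated as independent). A gene was bound when a peak touched its body, the 1 kb before it or the 5 kb after it. Among all protein-coding genes 43.1% were bound by H3K27ac, 10.4% by NELFA, 12.8% by Ser5p and 7.02% by Ser2p. Within 1 kb of the gene start the same 4 lists also had no Hox gene, where 32.3%, 8.09%, 8.27% and 1.74% of all protein-coding genes had a peak. The depth of the ChIP-seq libraries is unknown, so these lists set no limit on signal below the peak threshold.

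Ctr9 was the only list of mESCs with peaks in the clusters. It had 6, of which 2 were in HoxB and 4 in HoxC, and all lay by posterior genes. They covered 0.779% of the 4 clusters, where Ctr9 peaks covered 1.2% of the genome. Bound by them were 3 Hox genes, Hoxb9, Hoxc12 and Hoxc13 (7.69%, 1.62% to 20.9%), against 44.1% of all protein-coding genes. Hoxb9 and Hoxc13 had a peak within 1 kb of the start (5.13% of the 39, 0.627% to 17.3%), where 13.3% of all protein-coding genes did.

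The peaks at Hoxc13, the highest Hox gene of mESCs, lay inside the gene. The first had its summit 864 bp downstream of the start with a fold enrichment of 3.7, and the other two at 6155 and 6634 bp had 3.31 and 2.95. The 4th peak of HoxC was the widest of the 6 (1881 bp, fold enrichment 4.23), with its summit 3325 bp downstream of the Hoxc12 start, beyond the end of that gene. In HoxB both peaks lay before Hoxb9, 268 bp (3.54) and 1352 bp (4.72) upstream of its start. Hoxb9 had 7 counts in mESCs, and Hoxc12 and Hoxc13 had 14 and 72. Hoxd13 and Hoxa13, with 34 and 18, had no Ctr9 peak. The fold enrichments, 2.95 to 4.72, lay on both sides of the median of all mESC Ctr9 peaks (3.71). At a −log10 q of at least 5, 3 of the 6 peaks remained.

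In NIH3T3 cells H3K27ac covered a larger part of HoxA than of the other clusters. Its list held 54 peaks there, 34 in HoxA, 12 in HoxC, 6 in HoxD and 2 in HoxB. They covered 26.7%, 5.88%, 5.15% and 0.346% of the clusters and 8.24% of all 4 together, where H3K27ac peaks covered 0.839% of the genome. Per 100 kb there were 11 peaks in the clusters and 1.26 in the genome. Bound by H3K27ac were 20 of 39 Hox genes (51.3%, 34.8% to 67.6%), close to the 54.7% of all protein-coding genes. At the gene start 13 of 39 had a peak (33.3%, 19.1% to 50.2%), below the 44.7% of all protein-coding genes. When the NIH3T3 list was cut to its 19417 strongest peaks, the full size of the mESC list, 28 of the 54 remained.

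**Figure D3:**
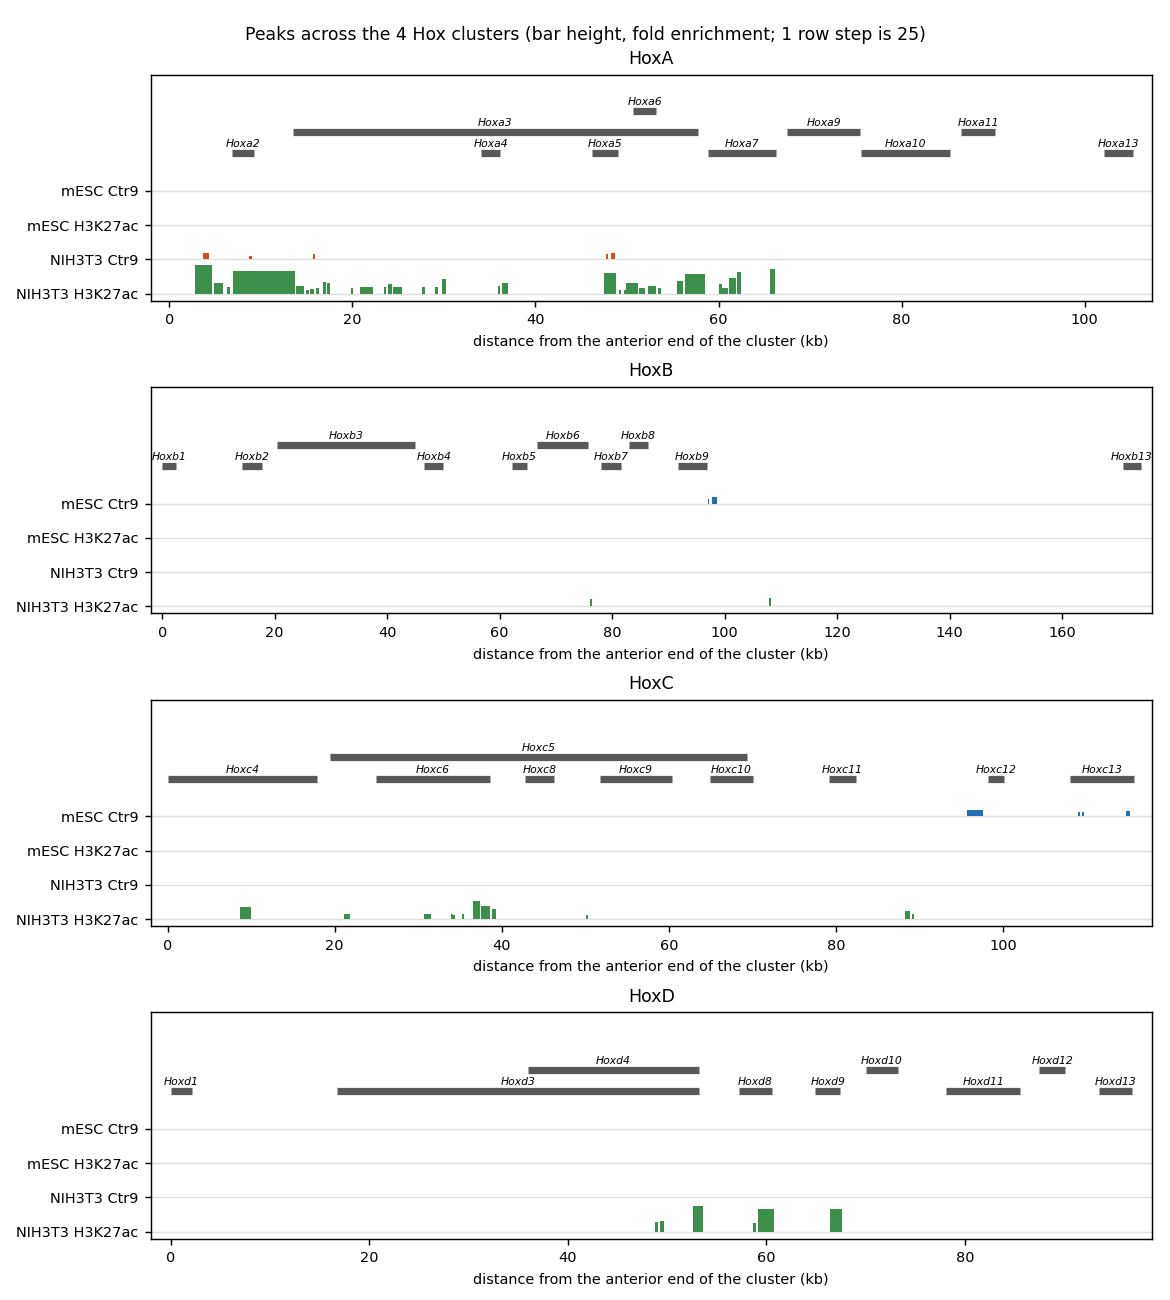
The maps give, for each cluster, the distance from its anterior end in kb (horizontal axis), the bodies of the genes described (grey bars) and the peaks of Ctr9 and H3K27ac in mESCs and NIH3T3 cells, with bar height proportional to fold enrichment. NIH3T3 H3K27ac has 34 separate peaks in HoxA, none of them posterior to Hoxa7, and 6 peaks in the middle of HoxD. In mESCs no cluster has an H3K27ac peak, and 6 peaks of Ctr9 lie at posterior HoxB and HoxC.

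In HoxA the acetylated stretch extended over 63415 bp up to the start of Hoxa7, and the following 39071 bp to the end of the cluster, with Hoxa9, Hoxa10, Hoxa11 and Hoxa13, held no peak. A peak with a fold enrichment of 18.3 had its summit 229 bp downstream of the Hoxa7 start. Hoxa7-201, with 85.3% of the Hoxa7 TPM, starts 4349 bp inside the gene, and a peak of 16.1 had its summit within 1 kb of it. A peak of 16.6 was the 7th widest of all 34241 peaks of the list, 6741 bp, and lay over Hoxa2 and the end of Hoxa3. Each gene from Hoxa2 to Hoxa7 had a peak within 1 kb of the start, and the enrichment of the strongest of these ranged from 5.78 at Hoxa6 to 18.3 at Hoxa7. The longest stretch without a peak inside the acetylated part was 10504 bp.

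In HoxD the 6 peaks lay within 18886 bp, from Hoxd9 to the starts of Hoxd3 and Hoxd4. The 3 strongest were at gene starts, 18.5 at Hoxd3 and Hoxd4, 16.7 at Hoxd9 and 16.5 at Hoxd8. The other 3 had 6.26 to 8.13 and lay within Hoxd8, Hoxd3 and Hoxd4. Hoxd10, Hoxd11, Hoxd12 and Hoxd13, over 29213 bp, and Hoxd1 at the other end lay outside the peaks. The border between acetylated Hoxd9 and Hoxd10 thus fell where the TPM in NIH3T3 cells went from 5.41 to 0.915.

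HoxC had weaker peaks, with a median fold enrichment of 3.98 against 5.72 in HoxA and 12.3 in HoxD. The highest, 13, had its summit 1457 bp downstream of the Hoxc6 gene start, followed by 9.77 at 736 bp and by 9.03 within the body of Hoxc4. From before Hoxc8 to the body of Hoxc4 there were 10 peaks in all. The remaining 2 peaks (3.45 and 6.08) lay by the non-coding RNA gene Hotair, between Hoxc12 and Hoxc11, and Hotair had 16 counts in NIH3T3 cells and none in mESCs. In HoxB the 2 peaks had 5.19, at 485 bp upstream of the Hoxb6 start, and 6.42, at 11225 bp upstream of the Hoxb9 start. Hoxb6 was also the HoxB gene of highest TPM in NIH3T3 cells.

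H3K27ac at the start and RNA went together in NIH3T3 cells, for Hox genes much as for all protein-coding genes. Of the 13 Hox genes with a TPM of at least 1, 11 had an H3K27ac peak within 1 kb of the gene start, and of the 26 others 2 did. Hoxd4 and Hoxd3, counted in different groups here, share the same peak at their starts. Among all protein-coding genes the shares were 84.8% of those with a TPM of at least 1 and 6% of the others. The 2 expressed genes without such a peak were Hoxc4 and Hoxc5, and the 2 weakly expressed genes with one were Hoxb6 (0.560 TPM) and Hoxd3 (0.725 TPM). Genes with a peak had a median TPM of 4.14 (0.560 to 17.3) and genes without had 0.0593 (0 to 2.26), so the groups overlapped between 0.560 and 2.26. When the start of the most abundant transcript was used, Hoxc6 and Hoxd4 also fell among the expressed genes without a peak, since 56.8% of the Hoxc6 TPM came from Hoxc6-201, which starts 11316 bp inside the gene.

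Over the 39 genes, Spearman's rho of TPM in NIH3T3 cells against the percentage of the gene body under H3K27ac peaks was 0.83. This describes 39 genes of 1 pair of libraries, many of which share a peak or overlap, since the annotated Hoxa3 contains Hoxa4, Hoxa5 and Hoxa6, Hoxc5 contains Hoxc6, Hoxc8 and Hoxc9, and Hoxd3 contains Hoxd4. Hoxa2 (93.1%) and Hoxa6 (84.8%) had the largest covered shares, Hoxd8 and Hoxa5 had 51.9% and 45.7%, and Hoxa7 had 37.1%.

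**Figure D4:**
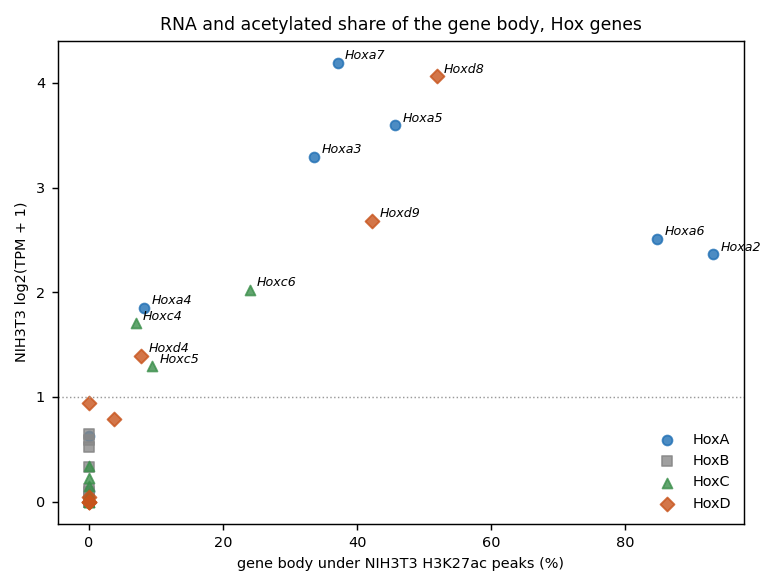
Each point is 1 Hox gene, with the percentage of the gene body under NIH3T3 H3K27ac peaks on the horizontal axis, log2(TPM + 1) in NIH3T3 cells on the vertical axis and the clusters by colour and shape. The points without coverage sit below a TPM of 1, and the most covered genes, Hoxa2 and Hoxa6, are not the most expressed.

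Ctr9 in NIH3T3 cells was found in HoxA alone. Its 5 peaks there covered 2.05% of HoxA, where Ctr9 peaks covered 0.601% of the genome, and HoxB, HoxC and HoxD had none. 5 Hox genes were bound, among them Hoxa2, Hoxa3, Hoxa5 and Hoxa6 (12.8%, 4.30% to 27.4%), against 25.8% of all protein-coding genes. A peak within 1 kb of the start was found for 3 of the 39 (7.69%, 1.62% to 20.9%), among them Hoxa2 and Hoxa5. The share of all protein-coding genes was 12.7%. The strongest peak (fold enrichment 4.88) lay within Hoxa5, 448 bp downstream of its start, and another there, at 1199 bp, had 4.34. Others were 4.28 within Hoxa3 and 2.72 at 197 bp downstream of the Hoxa2 start. Hoxa7 and Hoxd8, the highest Hox genes of NIH3T3 cells, had no Ctr9 peak.

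All 5 Ctr9 peaks overlapped H3K27ac peaks, 4 of them over their whole length and the one in Hoxa3 over 48.0% of it. In the genome 21.7% of the NIH3T3 Ctr9 peaks overlapped H3K27ac. Seen from the other side, 4 of the 54 H3K27ac peaks in the clusters (7.41%) met a Ctr9 peak, and 12.7% did in the genome. No position in the clusters had a Ctr9 peak in both cell types, since those of mESCs lay in HoxB and HoxC and those of NIH3T3 cells in HoxA.

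Hox proteins bind DNA together with TALE homeodomain proteins of the Pbx, Meis and Pknox families, and 5 of the 9 genes of this list were at least 2-fold higher in NIH3T3 cells (11.3% of all protein-coding genes) and none in mESCs (13.5%). Meis1 was at 1.11 TPM in mESCs and 9.71 TPM in NIH3T3 cells, Meis2 had 2.17 and 10.3, and Meis3 had 1.96 and 5.31. Pbx2 (14.2 and 15.9) and Pknox1 (9.53 and 8.51) differed little. Among 18 genes known to act on Hox expression, 8 were at least 2-fold higher in mESCs (13.5% of all protein-coding genes) and none in NIH3T3 cells (11.3%). They included the Polycomb genes Jarid2 (94.1 and 3.67), Cbx7 (56.7 and 1.36), Eed (189.5 and 28.6), Rnf2 (82.4 and 34.7) and Pcgf2 (48.4 and 20.3). Of the other Polycomb genes of the list, Ezh2 (67.8 and 39.8) and Suz12 (90.8 and 49.9) were higher in mESCs by less than 2-fold, and Cbx2 was at 6.6 TPM in mESCs and 9.2 TPM in NIH3T3 cells. Kmt2a, which encodes a histone methyltransferase that maintains Hox expression, had 3.51 and 4.63. Cdx2, an activator of central Hox genes in the embryo, had no count in either library.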

How the data were processed

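ChIP-seq and RNA-seq of E14 mESCs and NIH3T3 cells gave 7 peak lists and 2 transcript tables, 1 library each, and the 3 input libraries were not used here. Reads were mapped by the authors to mm10 (Bowtie2 2.3.5.1), those in blacklisted regions were dropped, and MACS2 2.2.6 called peaks below a q-value of 0.01. In the deposited lists, the score, the fold enrichment and the −log10 of the p- and q-value belong to each peak. For RNA the authors used kallisto 0.46.1 with the GENCODE M19 transcripts. The deposited tables hold its estimated counts, which need not be whole numbers, and its TPM, which sum to 1000000 per library. Libraries were strand-specific per the labels, but whether kallisto used the strand is not given in the sources used here, so sense and antisense transcripts of a locus may share reads.

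Gene positions came from GENCODE M21 (mm10), and no peak lay past a chromosome end. Hoxd4, which has more than 1 gene identifier in M19, was joined into 1 gene. A gene's TPM was that of its highest transcript. Differences were taken on log2(TPM + 1), and ratios on estimated counts per 1000000 (CPM) with exact conditional intervals. Counts of genes carry Clopper-Pearson intervals and counts of reads exact Poisson intervals, all at 95%, and a gene with no count was set against 3 counts per library. Peaks counted as overlapping with at least 1 base. No test was made, since no group has a second library. Python 3.11.15, pandas 2.3.3, NumPy 2.4.6, SciPy 1.17.1 and Matplotlib 3.10.9 were used, and the code for overlaps and intervals was tested on simulated data (7 of 7 checks passed).

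The members and lists were chosen with earlier results of these data known. Named with values were Hox genes with a TPM of at least 1 in either line, with a peak within 1 kb of the start or among the 3 highest of a line, with further Hox genes given beside them. Values of some genes enter the counts and totals but are not reported here. In a list and cluster with more than 10 peaks the 3 of highest fold enrichment were to be described; 2 peaks by Hotair, the widest peak of HoxA and the peak within Hoxc4 were added after their values were seen. Of the alternatives, 22 were planned and 2, on the start used for a gene, were chosen after seeing the data. Protein sequences were not used here.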

Additional observations from a re-analysis of the deposited data

How the results depend on the processing

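Of 140 alternative values for 32 counts, 120 were within 1.5 times the reported one. The 120 include all alternatives to the counts of 0 for mESC H3K27ac, NELFA, Ser5p and Ser2p. Many of those were narrower definitions that could not change a 0, so the share overstates how stable the other counts were. The mESC count of Hox genes with a TPM of at least 1 went from 1 to 28 with any TPM above 0, 5 at a TPM of 0.5 and 6 at 0.5 CPM, and the NIH3T3 count of 13 went to 29 with any TPM above 0 and 20 at 0.5 CPM. With a pseudocount of 0.1, 19 genes in place of 12 were 2-fold higher in NIH3T3 cells and 6 in place of 1 in mESCs, and on CPM 2 were higher in mESCs. For mESC Ctr9, both −log10 q of at least 5 and the same number of peaks in both lines (22016) left 3 of 6 peaks, 1 in HoxB and 2 in HoxC, and a window of 500 bp left 1 start in place of 2. For NIH3T3 H3K27ac, the same number of peaks left 28 of 54, with 17 in HoxA, 5 in HoxC and 1 in HoxB, and −log10 q of at least 5 left 7 of 12 in HoxC. These are narrower or wider definitions by construction. No paired analysis was possible because each group has 1 library. Peak lists hold no read depth, so lack of a peak sets no upper limit on occupancy.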

Other observations

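Non-coding RNA genes of the clusters differed widely in level. Of 15 listed (long non-coding genes within or next to the clusters and the Mir10 and Mir196 genes), 3 were at least 2-fold higher in NIH3T3 cells on log2(TPM + 1) and 1 in mESCs, where 11.3% and 13.5% of all protein-coding genes were. Hotairm1, a long non-coding RNA gene of HoxA, had 3 counts (0.822 TPM) in mESCs and 49 (8.93 TPM) in NIH3T3 cells. Hoxd3os1, antisense to Hoxd3, had none and 72 (8.14 TPM), and Hoxaas3 had 4 and 20 counts. Halr1, beyond the anterior end of HoxA, went the other way, with 133.0 counts (12.1 TPM) in mESCs against none. The 50 kb next to the anterior end of HoxA held 1 Ctr9 peak and 1 H3K27ac peak in mESCs, both counted at Halr1, and neither list had a peak inside HoxA. The Mir10 and Mir196 genes had no count in either library. The paper describes its RNA-seq as mRNA sequencing, so this sets no limit on mature microRNAs.

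Of 12 protein-coding genes that neighbour the clusters, none was at least 2-fold higher in NIH3T3 cells and 3 were in mESCs, against 11.3% and 13.5% of all protein-coding genes. Evx1, a homeobox gene beyond the posterior end of HoxA, had 227.0 counts (3.26 TPM) in mESCs against none in the NIH3T3 library, the direction seen for Hoxa13. Calcoco2 had a TPM of 13.5 and 0, and Hibadh 82.2 and 33.2. Evx2, the corresponding gene next to Hoxd13, had no count in either.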
